A study of Homo sapiens with 6 samples.

Results

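The clustered histone genes are the genes of the 4 human histone clusters, named HIST1 to HIST4 in the annotation of the deposited files. They were taken by name, as every gene whose symbol gives a cluster and 1 of the 5 histone classes H1, H2A, H2B, H3 and H4, and 8 names that end in PS and a number (pseudogenes) were left out. This gave 76 of the 28965 genes named in the files, with 6 genes of class H1, 17 of H2A, 23 of H2B, 15 of H3 and 15 of H4. Cluster 1 on chromosome 6 held 55 of them, cluster 2 on chromosome 1 held 16, cluster 3 on chromosome 1 held 4, and cluster 4 on chromosome 12 held HIST4H4 alone. GENCODE 29 lists 70 as protein-coding and 5 as pseudogenes of several kinds, and HIST2H2BC was not found in that release by its ID.

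Histones H2A, H2B, H3 and H4 form the protein core around which DNA is wound in a nucleosome, and the linker histone H1 binds the DNA between nucleosomes. The clustered genes are transcribed mainly in S phase, when new chromatin is packed. Their usual messenger RNAs have no introns and end in a conserved stem-loop, bound by the protein SLBP, in place of a poly(A) tail, while several of the genes also give longer, polyadenylated or spliced forms. Many genes of a class encode the same or nearly the same protein, so that the RNA of a class comes from many copies at once.

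HaCaT cells, an immortalised human keratinocyte line, received either an siRNA that targets PSENEN (PSENEN siRNA, 3 libraries of total RNA) or, as the control, a mismatch siRNA (3 libraries). The PSENEN protein is part of γ-secretase, which cuts Notch and other proteins within the membrane, and the study asked what its silencing did to that complex and to signalling in keratinocytes. The labels give 100 pmol of the PSENEN siRNA, a lipid transfection reagent, medium with 10% serum and extraction at 48 and 72 h, without saying which of these times was sequenced or whether the libraries of a group came from separate cultures. The p-values therefore measure only the spread between libraries. Neither whether poly(A)+ RNA was selected nor the strandedness is given in the sources used here.

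Levels are given as TPM (transcript abundance relative to a library's total), a unit the authors' assembler scales for transcript length and library depth. Values for a group are listed in the order of its libraries 1, 2 and 3. The listed TPM of a library summed to 909066, 901671 and 906243 in PSENEN siRNA libraries, against 895748, 905344 and 886394 in mismatch siRNA libraries. These totals were not made equal in the main setting. Depth, estimated from the ratio of coverage to FPKM, was 9.16 to 15.6 gigabases per library. PSENEN itself had 1.75, 2.08 and 1.50 TPM in PSENEN siRNA libraries, against 6.58, 8.85 and 6.55 TPM in mismatch siRNA libraries, and fell by 1.58 on the log2(TPM + 1) scale (SE 0.18, limma adjusted p = 0.0353). None of the 6 fits that leave out a library called it (limma adjusted p 0.0853 to 0.146). All 6 keratinocyte markers were detected, with a summed level of 3244 to 3818 TPM in PSENEN siRNA libraries and 4941 to 7896 TPM in mismatch siRNA libraries. These sums did not overlap between the groups, and their part in the histone values was not tested. Fibroblast markers summed to 0.550 to 2.33 and 1.99 to 2.69 TPM in the same order, with 3 of 6 at 0 throughout, melanocyte markers to at most 0.956 and 1.95 TPM with 4 of 5 at 0, and blood cell markers to 0 and at most 0.618 TPM with 3 of 4 at 0. Because these are bulk samples, fewer cells in S phase and less histone RNA per cell cannot be told apart.

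The stem-loop was looked for in the members' most abundant annotated transcripts, since it is the feature by which these RNAs are processed. The motif searched was GG, NNN, TTT, NN, A, NNN and CC in this order without gaps, where N is any base, on the transcript's own strand after the stop codon. It was present in 28 of the 68 members with a coding sequence, and 35 of the 68 have no annotated base after the stop codon, so the motif could not have been found there. Among the 27 members with at least 60 annotated bases after the stop codon, 26 had it, against 598 of the 19684 protein-coding genes of GENCODE 29 (3.04%, at any length after the stop codon). It began 22 to 67 bases after the stop codon, with a median of 39, and 27 of the 28 copies had 6 paired bases around a loop of 4. The form found most often, in 17 members, and the form of the H4 gene HIST1H4H are shown with the paired bases in capitals, from GENCODE 29 transcripts.
HIST1H2BE: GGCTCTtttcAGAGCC
HIST1H4H: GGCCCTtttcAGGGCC

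The first comparison asked whether the summed RNA of each histone class differed between cells with the PSENEN siRNA and cells with the mismatch siRNA. In TPM the groups overlapped in every class. All 76 genes together had 23889, 23126 and 24522 TPM in PSENEN siRNA libraries, against 24486, 23858 and 23043 TPM in mismatch siRNA libraries. That is 2.56% to 2.73% of all TPM in a library, and the groups overlapped (log2 ratio of means 0.003, exact two-sided permutation p = 0.7, where 3 against 3 libraries allow no p under 0.1).

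The core histone sums were close. The H2A genes summed to 5980, 6526 and 6337 TPM in PSENEN siRNA libraries, against 6236, 6164 and 6132 TPM in mismatch siRNA libraries (log2 ratio 0.02, exact permutation p = 0.6). Class H3 gave 4434, 4371 and 4561 TPM with the PSENEN siRNA, against 4593, 4308 and 4354 TPM with the mismatch siRNA (0.01, exact permutation p = 0.7). For H4 the sums were 6433, 5917 and 6228 TPM in PSENEN siRNA libraries and 6388, 6333 and 5954 TPM in mismatch siRNA libraries (-0.01, exact permutation p = 0.9). In each of these 3 classes the highest and the lowest of the 6 libraries belonged to the same group. With 2 other scalings the H2A sums no longer overlapped. In FPKM they were 2234, 2383 and 2380 in PSENEN siRNA libraries, against 2165, 2177 and 2202 in mismatch siRNA libraries, and with median-of-ratios scaling they were 6060, 6501 and 6289 with the PSENEN siRNA, against 5956, 5928 and 6003 with the mismatch siRNA (exact permutation p = 0.1 each). The H3 sums did not overlap in FPKM either, at 1656, 1597 and 1713 in PSENEN siRNA libraries, against 1594, 1521 and 1564 in mismatch siRNA libraries (exact permutation p = 0.1).

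Class H2B varied most, at 4776, 4074 and 5040 TPM in PSENEN siRNA libraries, against 5202, 4947 and 4056 TPM in mismatch siRNA libraries (log2 ratio -0.03, exact permutation p = 0.8). PSENEN siRNA library 2 and mismatch siRNA library 3 were both low in H2B. These sums leave out assembled transcripts that could not be assigned to a single gene. With those that overlap an H2B gene on its strand added, PSENEN siRNA libraries had 6693, 6287 and 6643 TPM. Mismatch siRNA libraries then had 7143, 5640 and 5127 TPM, and the groups overlapped (log2 ratio 0.13, exact permutation p = 0.4). The linker histones of class H1 summed to 2266, 2238 and 2355 TPM in PSENEN siRNA libraries, against 2067, 2107 and 2548 TPM in mismatch siRNA libraries (0.03, exact permutation p = 0.9). Here 2 mismatch siRNA libraries were the lowest of the 6 and the other was the highest. The coefficient of variation over the 6 libraries was 3.01% for H2A, 2.62% for H3 and 3.59% for H4, but 7.73% for H1 and 10.6% for H2B. The sum over all 76 genes varied by 2.67%, while the median for a single tested gene was 10.6%.

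**Figure D1:**
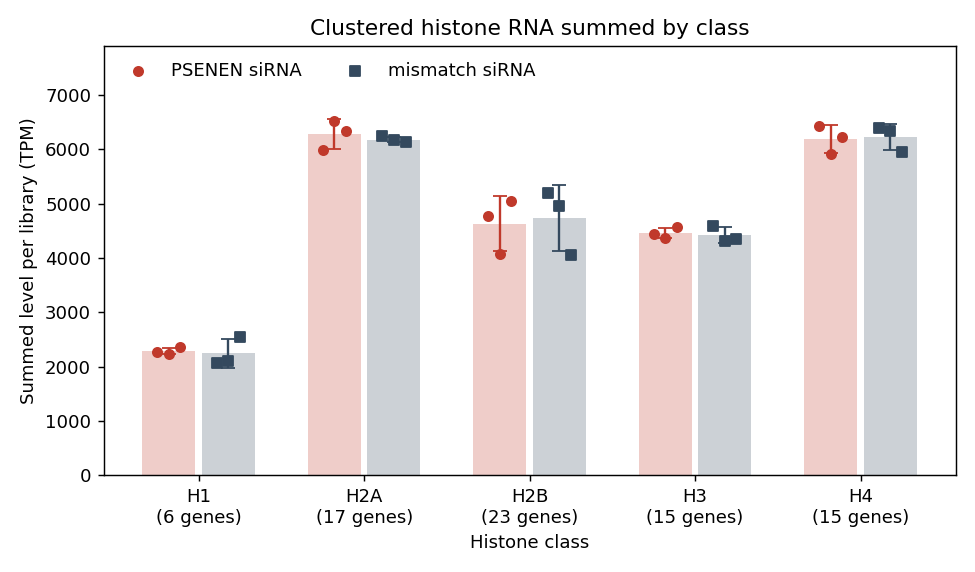
Summed level (TPM, linear axis from 0) of the clustered histone genes of each class, with PSENEN siRNA libraries in red circles and mismatch siRNA libraries in dark squares. Bars are means of 3 libraries and lines are SD. In TPM the groups overlap in every class, and the widest spread is in H2B, where single libraries reach from 4056 to 5202 TPM.

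The second comparison was gene by gene. A gene was tested where it had at least 1 TPM in at least 3 libraries, which 70 of the 76 members did. The other 6 were HIST1H1T, HIST1H2AA, HIST1H2BA, HIST2H2BC, HIST2H3DP1 and HIST1H4G, and 4 members were listed at 0 in at least 1 library. Most members were abundant, with 50 of 76 at 100 TPM or more on average over the 6 libraries. Across the whole table, limma called 0.489% of 16362 genes at an adjusted p under 0.05, 0.153% of them higher and 0.336% lower with the PSENEN siRNA. Among the 70 tested members none was called higher and 1, HIST1H2BE, was called lower. The smallest adjusted p of the other 69 was 0.126.

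At an unadjusted p under 0.05 stood 9 of the 70 members, beside 14.4% of all genes tested. The median change of the tested members was -0.0007 on the log2 scale, with 35 above and 35 below 0, and that of all genes tested was -0.05. In 20 of the 70 (28.6%) the 3 libraries of a group did not overlap the 3 of the other, 15 of them lower and 5 higher with the PSENEN siRNA. Over all genes tested the share was 22.1%, with 14.3% lower and 7.82% higher.

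**Figure D2:**
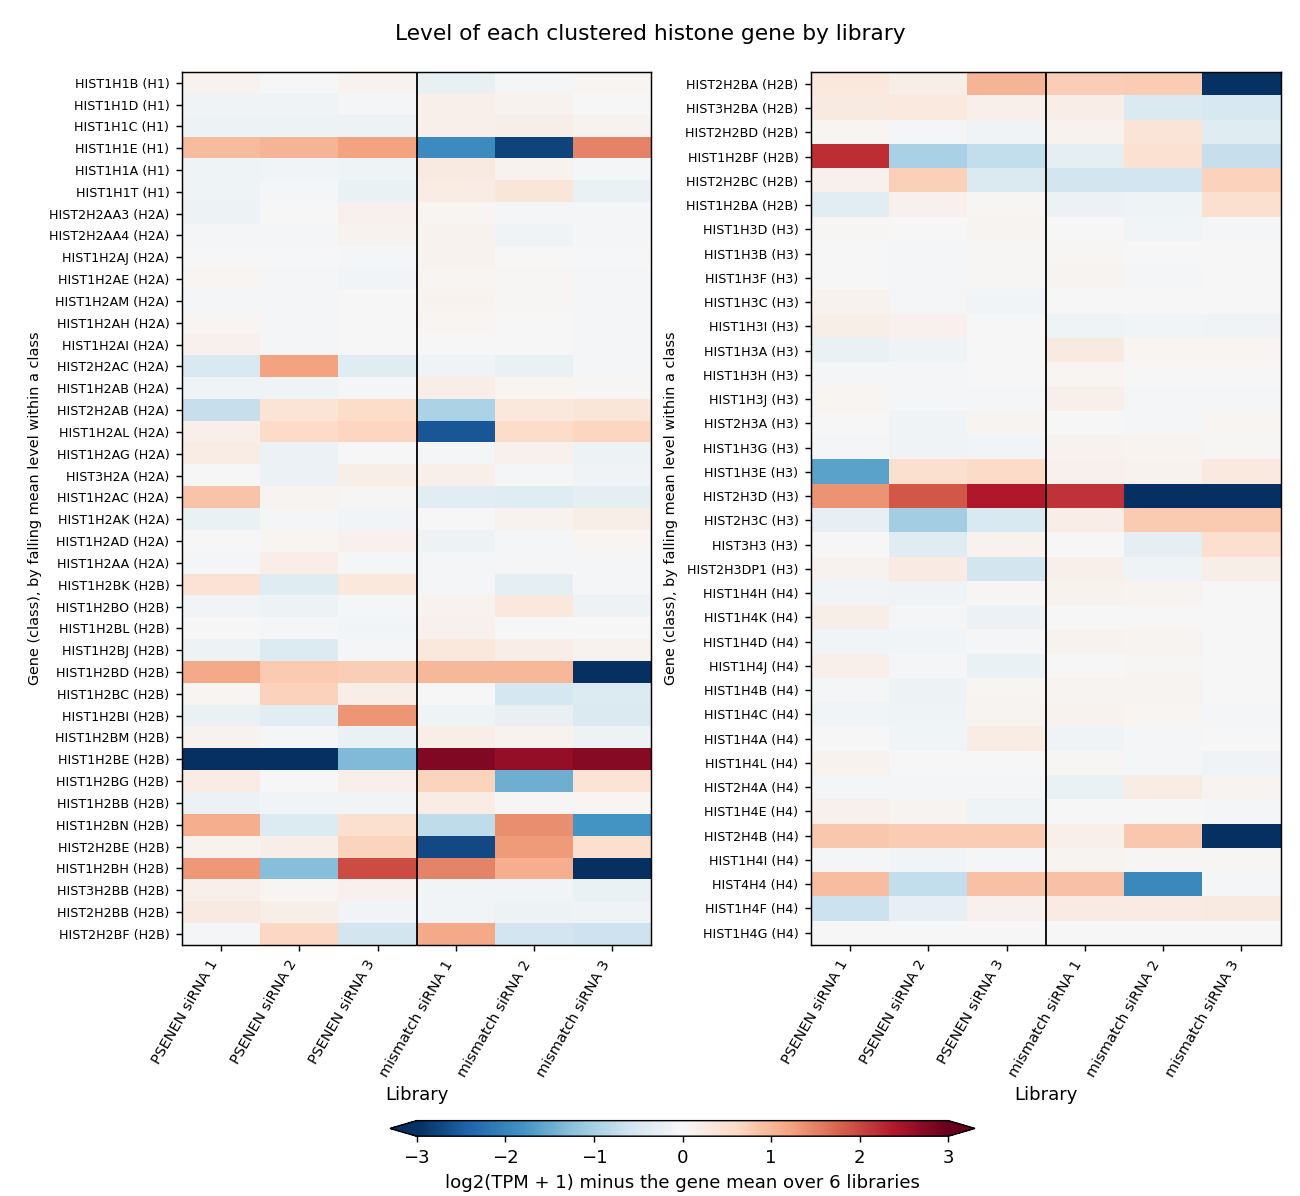
Level of each of the 76 genes in each library as log2(TPM + 1) minus the gene's mean over the 6 libraries, with PSENEN siRNA libraries left and mismatch siRNA libraries right of the line. Colours end at 3 in either direction. Most rows are pale in all 6 libraries, while a few change colour inside a group, and HIST1H2BE is low in all 3 PSENEN siRNA libraries and high in all 3 mismatch siRNA libraries.

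Linker histones. Of the 6 H1 genes, 5 were tested and none was called. Of these 5, 3 were lower with the PSENEN siRNA without overlap, as were 14.3% of all genes tested. HIST1H1C, the gene of linker histone H1.2, had 487, 489 and 490 TPM in PSENEN siRNA libraries, against 603, 616 and 588 TPM in mismatch siRNA libraries, a difference of -0.30 on the log2(TPM + 1) scale (SE 0.08, limma adjusted p = 0.168). The 3 libraries of each group lay closely together and apart from the other group. HIST1H1D (H1.3) showed 548, 553 and 575 TPM with the PSENEN siRNA, against 657, 640 and 598 TPM with the mismatch siRNA (-0.18, SE 0.08, limma adjusted p = 0.403). HIST1H1A (H1.1), the least abundant of the 5, stood at 99.8, 102 and 99.7 TPM in PSENEN siRNA libraries, against 130, 117 and 105 TPM in mismatch siRNA libraries. These 3 genes share under 1% of their 31-base words with any other annotated gene.

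HIST1H1B (H1.5), the most abundant H1 gene, had 799, 745 and 793 TPM in PSENEN siRNA libraries, against 632, 709 and 775 TPM in mismatch siRNA libraries, and the groups overlapped (0.15, SE 0.10, limma adjusted p = 0.570). HIST1H1E (H1.4, chromosome 6, 26156354 to 26157107) behaved differently inside the control group. It had 333, 348 and 397 TPM in PSENEN siRNA libraries, against 44.3, 24.1 and 483 TPM in mismatch siRNA libraries. Mismatch siRNA library 3 was thus the highest of the 6 and the other 2 were the lowest. The locus was also measured by exon coverage, an alternative chosen after seeing the data. It averages the coverage of every assembled exon, on the gene's strand or without a strand, over the exons of the gene's main transcript. Exons count whichever transcript carries them, and values are given in TPM equivalents. By this measure HIST1H1E had 333, 348 and 397 in PSENEN siRNA libraries, against 161, 94.2 and 483 in mismatch siRNA libraries, so the order of the libraries was alike and the spread in the mismatch siRNA group smaller. Without mismatch siRNA library 3 the gene was called higher with the PSENEN siRNA (3.41, limma adjusted p = 0.0420), and with all libraries it was not (2.13, SE 1.02, limma adjusted p = 0.403).

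Next to HIST1H1E lies HIST1H2BD, and its pattern in the mismatch siRNA libraries was the opposite. HIST1H2BD had 584, 458 and 447 TPM in PSENEN siRNA libraries, against 533, 530 and 9.74 TPM in mismatch siRNA libraries. Mismatch siRNA library 3, the highest in HIST1H1E, was the lowest in HIST1H2BD. Assembled transcripts that span HIST1H1E and another histone gene were found in mismatch siRNA libraries 1 and 2, at 70.4 and 67.6 TPM, and in no other library.

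Class H2A. None of the 16 tested H2A genes was called, and 3 (18.75%) did not overlap between the groups, beside 22.1% of all genes tested. The 3 most abundant, HIST2H2AA3, HIST2H2AA4 and HIST1H2AJ, differed by -0.01, 0.02 and -0.05 on the log2 scale, each less than its SE of 0.10, 0.10 and 0.08. HIST2H2AA3 had 796, 883 and 965 TPM in PSENEN siRNA libraries, against 926, 868 and 867 TPM in mismatch siRNA libraries. HIST2H2AA3 and HIST2H2AA4 are near-identical copies that share 100% and 97.2% of their 31-base words with each other, so the split between them is uncertain. HIST1H2AJ shares 86.0% of its 31-base words with other annotated genes (84.6% with HIST1H2AI), so its value is uncertain too. HIST1H2AB had 282, 281 and 300 TPM with the PSENEN siRNA, against 351, 319 and 318 TPM with the mismatch siRNA (-0.19, SE 0.09, limma adjusted p = 0.383).

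HIST1H2AC was the H2A gene with the largest difference among those without overlap. It had 86.0, 49.4 and 48.3 TPM in PSENEN siRNA libraries, against 37.3, 36.1 and 38.1 TPM in mismatch siRNA libraries (0.65, SE 0.23, limma adjusted p = 0.268). Its neighbour HIST1H2BC, an H2B gene whose start lies 235 bases away on the other strand, had 390, 603 and 431 TPM in PSENEN siRNA libraries, against 374, 261 and 279 TPM in mismatch siRNA libraries (0.63, SE 0.21, limma adjusted p = 0.255). In TPM both genes of the pair were higher without overlap, and neither was called. By exon coverage both overlapped between the groups. HIST1H2AC then had 86.1, 49.1 and 48.3 TPM equivalents in PSENEN siRNA libraries, against 56.8, 46.4 and 68.3 in mismatch siRNA libraries, and HIST1H2BC had 387, 362 and 424 in PSENEN siRNA libraries, against 457, 255 and 403 in mismatch siRNA libraries.

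In all, 13 pairs of an H2A and an H2B gene start within 1000 bases of each other on opposite strands, at 234 to 382 bases. Both genes were tested in 11 pairs, and their changes had the same sign in 7, with both higher in 4. The pair of HIST1H2AE (-0.03, SE 0.09) and HIST1H2BG (0.25, SE 0.53) is among those of opposite sign. So is that of HIST1H2AG (0.02, SE 0.14) and HIST1H2BJ (-0.42, SE 0.12). Apart from that of HIST1H2BJ, each of these changes was smaller than its SE.

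Class H2B. Of the 21 tested H2B genes, HIST1H2BE was called lower. A positive change was found in 14 and a negative one in 7, beside 7133 and 9229 of all 16362 genes tested. The groups did not overlap in 6 (28.6%), beside 22.1% of all genes tested. The 3 most abundant were HIST1H2BK, HIST1H2BO and HIST1H2BL. HIST1H2BK had 1133, 652 and 1047 TPM in PSENEN siRNA libraries, against 826, 699 and 805 TPM in mismatch siRNA libraries, and PSENEN siRNA library 2 was the lowest of the 6. HIST1H2BK shares 86.3% of its 31-base words with other annotated genes, so its value is uncertain. HIST1H2BO showed 690, 662 and 707 TPM with the PSENEN siRNA, against 786, 906 and 660 TPM with the mismatch siRNA. HIST1H2BL was lower without overlap at 463, 447 and 436 TPM in PSENEN siRNA libraries, against 511, 469 and 468 TPM in mismatch siRNA libraries (-0.10, SE 0.08, limma adjusted p = 0.628).

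HIST1H2BJ had 377, 320 and 405 TPM in PSENEN siRNA libraries, against 527, 488 and 454 TPM in mismatch siRNA libraries (-0.42, SE 0.12, limma adjusted p = 0.201). HIST3H2BB of cluster 3 had 48.7, 45.7 and 48.2 TPM with the PSENEN siRNA, against 41.2, 41.1 and 38.1 TPM with the mismatch siRNA (0.24, SE 0.09, limma adjusted p = 0.317). In both genes the groups did not overlap, in opposite directions.

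HIST1H2BE (ENSG00000274290) is 1 of 5 genes, with HIST1H2BC, HIST1H2BF, HIST1H2BG and HIST1H2BI, whose 381 coding bases give the same H2B protein of 126 residues. Its most abundant annotated transcript has 1 exon on the + strand of chromosome 6, at 26183730 to 26184226 (GRCh38, GENCODE 29). HIST1H2BE had 4.89, 8.08 and 30.0 TPM in PSENEN siRNA libraries, against 536, 487 and 512 TPM in mismatch siRNA libraries. All PSENEN siRNA libraries were far below all mismatch siRNA libraries, with the mean at 2.80% of that of the mismatch siRNA. The gene fell by 5.43 on the log2(TPM + 1) scale (SE 0.57, limma adjusted p = 0.0289), and 5 of the 6 fits that leave out a library no longer called it (adjusted p 0.0861 to 0.116, and 0.00153 without PSENEN siRNA library 3).

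By exon coverage HIST1H2BE had 196, 137 and 172 in PSENEN siRNA libraries, against 551, 487 and 525 in mismatch siRNA libraries. The mean was then 32.3% of that of the mismatch siRNA in place of 2.80%, and the gene was still called lower (-1.64, limma adjusted p = 0.0121, where 1.47% of 16697 genes were called, 1.09% of them lower). Another measure adds the whole TPM of each unassigned assembled transcript that overlaps the gene on its strand, and with it the difference was -0.69 and not called (limma adjusted p = 0.498).

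The part of that coverage carried by assembled transcripts with several exons was 192, 129 and 142 TPM equivalents in PSENEN siRNA libraries, against 15.0, 0.0721 and 13.4 in mismatch siRNA libraries. These transcripts share introns with no single annotated gene, and the abundant ones run from 1 histone gene into another. HIST1H2BF, the gene most often at the other end, was at 22.5, 1.58 and 2.03 TPM in PSENEN siRNA libraries, against 3.14, 5.89 and 2.11 TPM in mismatch siRNA libraries. By exon coverage it stood at 200, 98.8 and 130 with the PSENEN siRNA, against 164, 63.8 and 125 with the mismatch siRNA, where the groups overlapped. The coverage of HIST1H2BD, HIST1H2BE and HIST1H2BF as a sum was 986, 833 and 877 in PSENEN siRNA libraries, against 1351, 1155 and 660 in mismatch siRNA libraries (exact permutation p = 0.6).

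**Figure D3:**
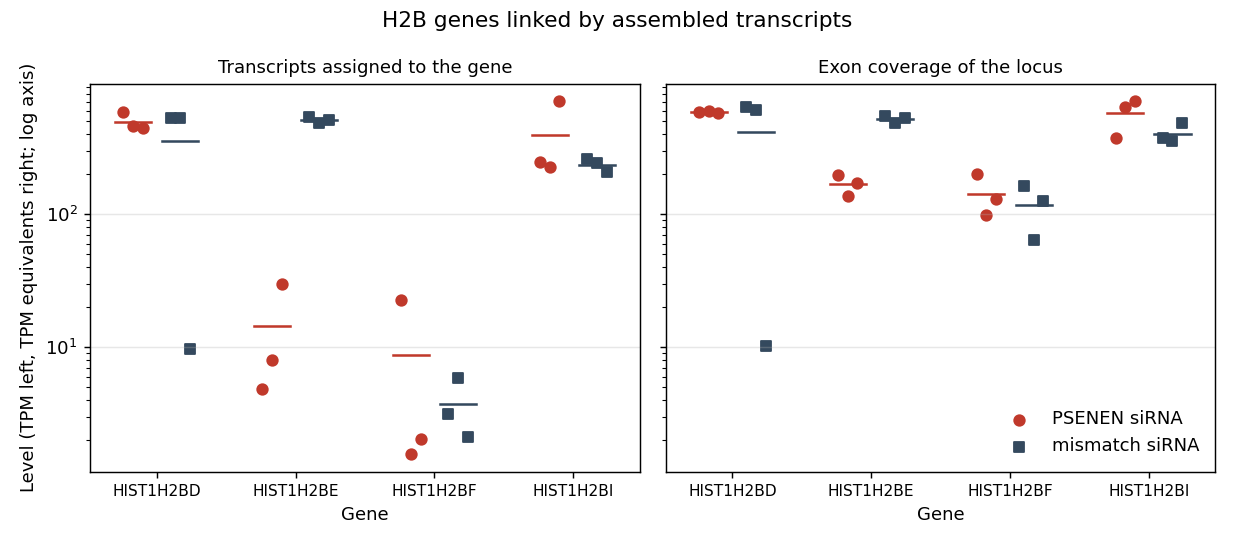
Level of 4 H2B genes in each library (log axis), from transcripts assigned to the gene in TPM (left) and from exon coverage of the locus in TPM equivalents (right), with PSENEN siRNA libraries in red circles and mismatch siRNA libraries in dark squares. Horizontal lines are means of 3 libraries. HIST1H2BE lies at 4.89 to 30.0 TPM against 487 to 536 TPM on the left, and at 137 to 196 against 487 to 551 on the right.

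Over the 6 libraries 44 assembled transcripts joined exons of at least 2 members on the same strand, 40 of them within a class and 34 within H2B. They involved 17 of the 76 members. A library held 5, 10 and 7 of them with the PSENEN siRNA, against 10, 7 and 5 with the mismatch siRNA. Their summed level was 1936, 2237 and 1645 TPM in PSENEN siRNA libraries, against 2054, 939 and 864 TPM in mismatch siRNA libraries (exact permutation p = 0.3). Those that touch HIST1H2BE had 713, 220 and 402 TPM with the PSENEN siRNA, against 256, 67.6 and 171 TPM with the mismatch siRNA (exact permutation p = 0.2).

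The joins fell at matching places in the 2 genes. The 44 transcripts gave 25 combinations of a join and a pair of members, over introns of 14048 to 73417 bases. Of these, 23 linked genes of the same class. The joins listed for HIST2H3C to HIST2H2BF and for HIST1H1E to HIST1H2BE are not separate ones. They have the positions of joins from HIST2H3C to HIST2H3D and from HIST1H2BD to HIST1H2BE. In 20 of the 23 the join could be placed in both coding sequences. In 20 of 20 the upstream gene ended at a coding base k and the downstream gene began at coding base k + 1. At such a join the coding positions therefore run on without a gap, and whole joined transcripts were not translated. The bases around the join were identical in both genes over a run of 8 to 86 bases, with a median of 32. The upstream coding sequence went on with gt and the downstream one was preceded by ag, as at a usual intron, in 9 of the 20. In the other 11 it went on with gc, the less common start of an intron, and the downstream one was again preceded by ag. Because the 2 genes are identical across the join, it could be placed at other bases of that run. The bases gt, gc and ag therefore cannot tell spliced RNA from reads placed between similar genes.

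The join from HIST1H2BE to HIST1H2BF after coding base 132 ran from 26183927 to 26199691 on chromosome 6 and carried 713, 101 and 290 TPM in PSENEN siRNA libraries and 0 in all 3 mismatch siRNA libraries. A join between the same genes after coding base 144, from 26183939 to 26199703, was listed at 0 with the PSENEN siRNA in all libraries, against 256, 0 and 171 TPM with the mismatch siRNA. The reference sequences of 4 H2B genes from coding base 118 to 147 (GENCODE 29 transcripts, all on chromosome 6) are shown because the first of these joins lies in their middle, after the base at coding position 132. Capitals mark bases that differ from HIST1H2BE.
HIST1H2BE: gtatacgtgtacaaggtgctgaaacaggtc
HIST1H2BF: gtGtacgtgtacaaggtgctAaaGcaggtc
HIST1H2BD: gtGtaTgtgtacaaggtgctgaaGcaggtc
HIST1H2BO: AtCtacgtgtacaaggtgctgaaGcaAgtc

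In this window HIST1H2BF and HIST1H2BD differ from HIST1H2BE at 3 bases each and HIST1H2BO at 4, and over the whole coding sequence HIST1H2BF is 91.6% and HIST1H2BD 92.4% identical to HIST1H2BE. Around coding base 231, where another join of HIST1H2BE and HIST1H2BF was assembled in PSENEN siRNA library 3 at 112 TPM, the same genes differ at a single base of 30. Capitals again mark bases that differ from HIST1H2BE, from coding base 217 to 246.
HIST1H2BE: cgcatcgccggcgaggcttcccgcctggcg
HIST1H2BF: cgcatcgcTggcgaggcttcccgcctggcg
HIST1H2BD: cgcatcgcAggcgaggcttcccgcctggcg

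Whether these joins are RNA molecules or come from reads placed between similar genes was not tested, since the reads were not used here. In cluster 2, a join of HIST2H2BC to HIST2H2BF was assembled in all 6 libraries, at 963, 902 and 714 TPM with the PSENEN siRNA, against 497, 250 and 262 TPM with the mismatch siRNA. Annotated HIST2H2BF transcripts had 12.9, 20.9 and 8.76 TPM in PSENEN siRNA libraries, against 30.2, 8.57 and 8.21 TPM in mismatch siRNA libraries. Its exon coverage was 219, 212 and 208 TPM equivalents with the PSENEN siRNA, against 189, 76.3 and 80.6 with the mismatch siRNA, so the groups did not overlap by coverage and did overlap by TPM.

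Class H3. None of the 14 tested H3 genes was called. The 3 most abundant, HIST1H3D, HIST1H3B and HIST1H3F, changed little. HIST1H3D had 905, 892 and 943 TPM in PSENEN siRNA libraries, against 875, 838 and 853 TPM in mismatch siRNA libraries, without overlap (0.09, SE 0.08, limma adjusted p = 0.644). HIST1H3B had 843, 807 and 854 TPM with the PSENEN siRNA, against 851, 824 and 826 TPM with the mismatch siRNA, a difference of 0.001. HIST1H3F differed by -0.007. Every 31-base word of HIST1H3D also occurs in another annotated gene, so its value is uncertain.

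HIST1H3I had 342, 331 and 301 TPM in PSENEN siRNA libraries, against 277, 284 and 279 TPM in mismatch siRNA libraries (0.21, SE 0.09, limma adjusted p = 0.348), with no overlap. HIST2H3C, a copy identical to HIST2H3A over its 31-base words, had 51.0, 28.8 and 44.0 TPM with the PSENEN siRNA, against 69.9, 105 and 105 TPM with the mismatch siRNA (-1.17, SE 0.25, limma adjusted p = 0.126). That p is the second smallest of all members, and the groups did not overlap by exon coverage either, at 51.0, 47.5 and 63.7 in PSENEN siRNA libraries, against 83.4, 113 and 114 in mismatch siRNA libraries. HIST2H3A itself had 139, 128 and 146 TPM with the PSENEN siRNA, against 135, 135 and 143 TPM with the mismatch siRNA. The split between these 2 copies is uncertain, in TPM and by exon coverage alike.

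HIST2H3D (chromosome 1, 149813271 to 149813681) split the mismatch siRNA group. It had 65.5, 93.8 and 138 TPM in PSENEN siRNA libraries, against 118, 0.651 and 0.888 TPM in mismatch siRNA libraries. Mismatch siRNA library 1 lay inside the range of the PSENEN siRNA libraries, and the other 2 were under 1 TPM. Without mismatch siRNA library 1 the gene was called higher (5.76, limma adjusted p = 0.0141), and with all libraries it was not (3.74, SE 1.59, limma adjusted p = 0.357). Exon coverage at the locus was 65.5, 130 and 176 in PSENEN siRNA libraries, against 136, 63.3 and 69.2 in mismatch siRNA libraries, and 62.6 and 68.3 of it in mismatch siRNA libraries 2 and 3 came from assembled transcripts with several exons.

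Class H4. None of the 14 tested H4 genes was called. The H4 genes are the most uniform class in protein, with 12 of 13 coding sequences giving the same one, and their median shared sequence was 2.84% of 31-base words, below the 15.1% of class H2B. HIST1H4H had 873, 860 and 953 TPM in PSENEN siRNA libraries, against 993, 974 and 916 TPM in mismatch siRNA libraries (-0.10, SE 0.09, limma adjusted p = 0.652). HIST1H4D was lower without overlap, at 824, 820 and 852 TPM with the PSENEN siRNA, against 926, 913 and 877 TPM with the mismatch siRNA (-0.12, SE 0.08, limma adjusted p = 0.547). HIST1H4K, which shares all its 31-base words with HIST1H4J, differed by -0.02 with an SE of 0.11.

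HIST2H4B and HIST4H4 varied inside a group. HIST2H4B had 281, 268 and 272 TPM in PSENEN siRNA libraries, against 177, 279 and 15.0 TPM in mismatch siRNA libraries, while its near-identical copy HIST2H4A had 296, 292 and 295 TPM with the PSENEN siRNA, against 261, 349 and 318 TPM with the mismatch siRNA. By exon coverage HIST2H4B had 270, 259 and 268 TPM equivalents in PSENEN siRNA libraries, against 173, 272 and 135 in mismatch siRNA libraries, a smaller spread than in TPM. HIST4H4 of cluster 4 had 226, 70.6 and 220 TPM in PSENEN siRNA libraries, against 218, 30.1 and 116 TPM in mismatch siRNA libraries. In both genes the lowest library belonged to the mismatch siRNA group and the groups overlapped.

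**Figure D4:**
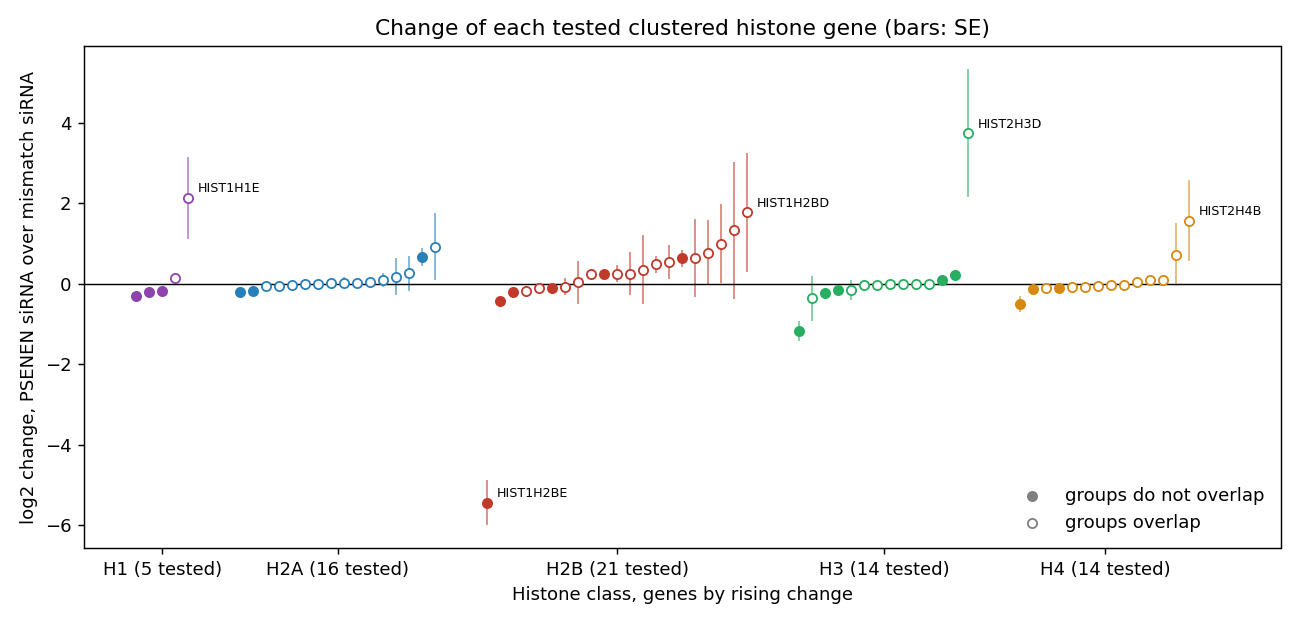
Change of each of the 70 tested genes on the log2(TPM + 1) scale, PSENEN siRNA over mismatch siRNA, by class and in rising order, with SE as lines. Filled points mark genes whose groups do not overlap. Most points lie near 0 with short lines, HIST1H2BE lies at -5.43, and the genes with the largest positive changes have open points and long lines.

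Values that switched inside a group were counted. No member went from at or below 0.1 TPM in 1 library to 10 TPM or more in another library of its group, in either group. With the lower limit at 1 TPM, there were still none in the PSENEN siRNA group, while HIST2H2BA, HIST1H2BH and HIST2H3D met it in the mismatch siRNA group. HIST1H2BH had 68.9, 10.8 and 109 TPM in PSENEN siRNA libraries, against 78.3, 59.9 and 0.207 TPM in mismatch siRNA libraries, with mismatch siRNA library 3 the lowest by far.

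A wider definition, chosen after seeing the data, took genes whose highest library in a group had at least 10 TPM and at least 5 times the level of the lowest. In the PSENEN siRNA group 3 of 66 members met it (4.55%, beside 1.97% of 8163 genes), namely HIST1H2BE, HIST1H2BF and HIST1H2BH. In the mismatch siRNA group 10 of 65 did (15.4%, beside 2.4% of 8409 genes), namely HIST1H1E, HIST1H2AL, HIST2H2BA, HIST2H2BE, HIST1H2BD, HIST1H2BH, HIST1H2BN, HIST2H3D, HIST2H4B and HIST4H4. By exon coverage the counts were 0 of 68 and 7 of 67, but the share over all genes was not computed for this measure. The difference between the groups in these counts was not tested.

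Members in the joined transcripts varied more inside a group than the others. Among members with a mean of at least 10 TPM, 7 of 15 in joined transcripts and 4 of 50 in none had a group whose highest library was at least 5 times its lowest. The median of the larger of the 2 ratios of a gene was 3.68 for the 15 and 1.16 for the 50. These counts are a description, since the joined transcripts and the gene values come from the same assemblies.

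**Figure D5:**
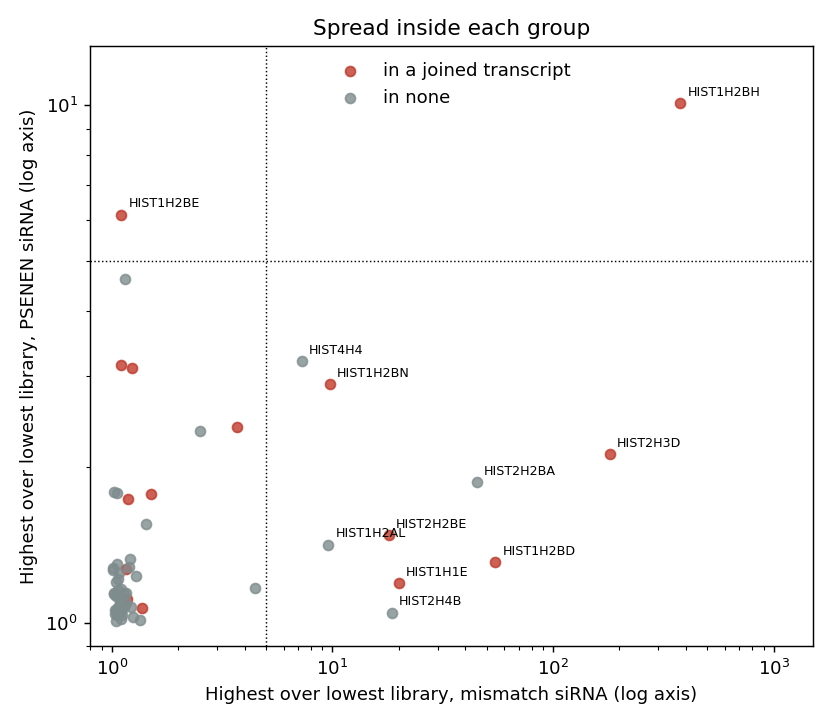
Highest over lowest library inside the PSENEN siRNA group (vertical axis) and inside the mismatch siRNA group (horizontal axis) for members with a mean of at least 10 TPM, both axes logarithmic, with a dotted line at 5. Red points are genes in at least 1 joined transcript. Most points lie close to 1 on both axes, and the named genes pass 5 in at least 1 group.

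Annotated transcripts with more than 1 exon, the form in which some histone genes are polyadenylated, were assembled for 10 members. They summed to 1040, 606 and 1025 TPM in PSENEN siRNA libraries, against 859, 878 and 614 TPM in mismatch siRNA libraries, and the groups overlapped (exact permutation p = 0.6). This sum leaves out assembled transcripts that only share an intron with a member. An example is HIST1H2BN in PSENEN siRNA library 1, with 110 TPM for the gene and 71.0 TPM for its annotated transcript with 1 exon. Transcripts with 1 exon gave 22810, 22520 and 23497 TPM with the PSENEN siRNA, against 23627, 22981 and 22429 TPM with the mismatch siRNA (exact permutation p = 0.8). HIST1H2BC changed form inside a group. Its transcript with 2 exons was listed at 382, 0 and 414 TPM in PSENEN siRNA libraries, against 371, 247 and 274 TPM in mismatch siRNA libraries, and that with 1 exon at 7.49, 603 and 17.2 TPM with the PSENEN siRNA, against 3.50, 13.3 and 5.10 TPM with the mismatch siRNA. The exon coverage of the locus, given beside HIST1H2AC, overlapped between the groups.

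Lists of genes around histone supply were described beside the members, and none of their genes was called. Of 12 replication-independent histone variants tested, 5 had a positive and 7 a negative change, with a median of -0.11. H2AFZ, the most abundant of them and the gene of the variant H2A.Z, had 263, 262 and 282 TPM in PSENEN siRNA libraries, against 254, 287 and 274 TPM in mismatch siRNA libraries. Of 24 genes of histone transcription and 3′ processing, 10 were positive and 14 negative (median -0.09), and their sum was 695 to 764 TPM with the PSENEN siRNA and 775 to 839 TPM with the mismatch siRNA, without overlap (exact permutation p = 0.1). SNRPG, a shared protein of the small nuclear ribonucleoproteins and the most abundant of this list, had 138, 139 and 24.6 TPM in PSENEN siRNA libraries, against 169, 162 and 144 TPM in mismatch siRNA libraries. Without SNRPG, an alternative chosen after seeing the data, the other 23 genes of the list summed to 557, 626 and 678 TPM in PSENEN siRNA libraries, against 667, 677 and 631 TPM in mismatch siRNA libraries, and the groups overlapped (exact permutation p = 0.5). The change of SNRPG was -1.004 with all libraries, -0.19 without PSENEN siRNA library 3 and -0.29 by exon coverage.

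Of 19 histone chaperones, which carry histones to and from DNA, 10 were positive and 9 negative (median 0.02). SSRP1, a subunit of the FACT complex, had 118, 159 and 163 TPM with the PSENEN siRNA, against 119, 158 and 155 TPM with the mismatch siRNA. Of 15 S phase genes, 11 were positive and 4 negative (median 0.07), and PCNA, the sliding clamp of DNA replication, had 221, 245 and 242 TPM in PSENEN siRNA libraries, against 274, 222 and 197 TPM in mismatch siRNA libraries. A list of 19 RNAs without a poly(A) tail summed to 117308 to 126086 TPM with the PSENEN siRNA and 114829 to 124228 TPM with the mismatch siRNA (exact permutation p = 0.5). In the S phase genes and in this list the sums of the groups overlapped. Nearly all of the list's sum came from RN7SL1, RN7SL2 and RN7SK, with means of 58325, 32503 and 28796 TPM over the 6 libraries. Only 12 of the 19 were tested, so the sum does not describe such RNAs in general. RN7SL1, the RNA of the signal recognition particle, was the largest of the list, at 62219, 58379 and 60385 TPM in PSENEN siRNA libraries, against 54568, 55302 and 59097 TPM in mismatch siRNA libraries.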

How the data were processed

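The files the authors deposited hold 1 StringTie assembly per library, which is named as the source of each line per the file headers, with TPM, FPKM and coverage per transcript and no counts (other values, such as exon numbers, were not used). Bowtie 0.12.2 is named in the submitters' processing notes beside mm8 and mm9, mouse builds that cannot be those of human files. Neither the aligner nor StringTie's version and options are given in the sources used here. GENCODE 29 on GRCh38 held 92263 of the 92476 reference transcripts, and 90779 (98.2%) lay at the same position.

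A gene's value added up the TPM of its reference transcripts and of assembled transcripts with an intron of that gene and no other. Gene values held 72.6%, 72.0% and 71.5% of all TPM in PSENEN siRNA libraries, against 73.5%, 73.0% and 74.5% in mismatch siRNA libraries. The rest was assigned to no gene. These shares did not overlap between the groups, and their part in the differences was not tested. Levels were compared as log2(TPM + 1) by limma 3.58.1 (R 4.3.3, intensity trend) for genes that reached 1 TPM in 3 or more libraries, with Benjamini-Hochberg adjustment over all genes tested, at 0.05. Fold changes on this scale understate the change of low genes. Class sums were compared by exact two-sided permutation tests. Shared sequence is how many of the 31-base words in a gene's transcripts, as a percentage, another annotated gene holds too. The fits were tested on simulated data. Parsing and figures used Python 3.11.15, matplotlib 3.10.9, SciPy 1.17.1, NumPy 2.4.6 and pandas 2.3.3.

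The members, the gene lists and the tests were chosen with earlier results of these data known. Genes named in full were called members, the 3 most abundant members of each class, switching members and the most abundant gene of each list, and other members named were chosen after their values were seen. Depth was estimated from coverage, and without counts no counting intervals are given. A group treated with transfection reagent alone, described in the labels, was not analysed here.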

Additional observations from a re-analysis of the deposited data

Results flagged for a closer look

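Assembled transcripts that join HIST2H2BF to another member lie outside the gene values and were above their level in the control libraries. They had 963, 902 and 932 TPM in PSENEN siRNA libraries, against 830, 324 and 344 TPM in mismatch siRNA libraries, or 932 ± 30.1 against 499 ± 287 TPM (mean ± SD, n = 3 each, exact two-sided permutation p = 0.1, the smallest these libraries allow). The 3 PSENEN siRNA libraries were above all 3 mismatch siRNA libraries. Groups of 3 libraries were not searched for single outlying samples.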

How the results depend on the processing

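The fall of HIST1H2BE was not called with overlapping assembled transcripts added (-0.69) or with the replicate block (-5.43, adjusted p = 0.183), so that members called lower numbered 0 in both. In the other planned settings with all 6 libraries its adjusted p was 0.0167 to 0.0486. With each library left out its change was -6.13 to -4.93 (adjusted p 0.0861 to 0.116 in 5 fits, which did not call it, and 0.00153 without PSENEN siRNA library 3), members called higher or lower were 0 to 1 each, genes called overall 9 to 12, and PSENEN -1.66 to -1.45 (adjusted p 0.0853 to 0.146, not called in any of the 6 fits). Same-numbered libraries did not deviate together (correlations -0.06, 0.001 and -0.02), so the replicate block rests on shared numbers only, and it left 4 genes called. Exon coverage called 246 genes. With all libraries PSENEN was not called without a filter (-1.58, adjusted p = 0.0602), with the block (-1.58, 0.222) or with overlapping transcripts added (-1.79, 0.0541). The median of all genes moved to 0.01 with FPKM and -0.005 with median-of-ratios scaling. Class sums then shifted to log2 ratios of 0.0967 and 0.0757 for H2A, 0.0858 and 0.0642 for H3 and 0.0769 and 0.0553 for all members in the same order, and to 0.0666 for H4 with FPKM. The groups then no longer overlapped for H2A under both and for H3 under FPKM (exact permutation p = 0.1 each). For H2B the log2 ratio, -0.03 in the main setting, was 0.0443 with FPKM and 0.0214 with median-of-ratios scaling. It was 0.132 with overlapping transcripts added and 0.00215 by exon coverage, and the H2B groups overlapped in all of these settings. Switching members numbered 3 with the limit of 1 TPM and 1 with FPKM.

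Uncalled named genes changed sign, and none was called there. With FPKM and with median-of-ratios scaling HIST2H2AA3 was at 0.0593 and 0.0384, HIST1H2AJ at 0.0249 and 0.00394, HIST1H3F at 0.0657 and 0.0448, HIST1H4K at 0.0512 and 0.0303, and H2AFZ at 0.0606 and 0.0401. Quantile normalization gave HIST2H2AA4 -0.0393, HIST1H3B -0.0626 and H2AFZ 0.051. Overlapping transcripts added gave HIST2H2AA4 -0.131 and RN7SL1 -0.0717, exon coverage gave RN7SL1 -0.0848 and SSRP1 -0.0161, and reference transcripts only gave SSRP1 -1.13. With each library left out the ranges were -0.0811 to 0.0576 for HIST2H2AA3, -0.0296 to 0.0843 for HIST2H2AA4, -0.0154 to 0.025 for HIST1H3B, -0.031 to 0.0271 for HIST1H3F, -0.11 to 0.0573 for HIST1H4K, -0.0588 to 0.0287 for H2AFZ, -0.11 to 0.17 for SSRP1 and -0.0659 to 0.173 for PCNA. The cause of these changes was not tested. Without counts, the depth behind a single value is unknown.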
